A study of Homo sapiens with 3 samples.

Results

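Reported PAX3-FOXO1 target genes are genes that earlier work has tied to the fusion protein of alveolar rhabdomyosarcoma (ARMS), and here 33 such genes were followed in Rh-30 cells. They were found through the platform annotation of the array by symbol or alias (BVES is now POPDC1), and all 33 had at least 1 probe set, 78 in all, out of 19775 genes measured. Where a gene had several, the one with the greatest log2 intensity averaged over the arrays stood for it. A level limit was set at 27.0% of the mean intensity of an array (taken without its extreme probe sets), which 39.7% to 40.2% of the probe sets of an array reached. Of the 33 genes, 22 reached the limit on at least 1 array and 11 stayed under it on all arrays, and over the whole series 10601 genes reached it. The members just inside this limit were GREM1, with a highest intensity of 143, and TSPAN33, with 198, and those just outside were BMP5, with 116, and DCX, with 74.0.

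The cells of Rh-30, a long-established line derived from an ARMS tumour, carry the fusion and were transfected with an siRNA against the junction of the fusion transcript (siPF), an siRNA against B7-H3, which is also called CD276 (siB7-H3), or a control siRNA (siCont), each at 5 nM, and RNA was taken after 24 h. Each condition had 1 Affymetrix array (U133 Plus 2.0), and each target was addressed with 1 siRNA in 1 cell line. There was therefore no replicate error and no test between conditions, and each difference below lies between 2 arrays.

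PAX3-FOXO1 joins the DNA-binding domains of PAX3, a paired-box factor of muscle precursors and the neural crest, to the activation domain of FOXO1. The fusion protein mostly raises transcription, often from enhancers away from promoters, and the genes tied to it include receptor tyrosine kinases, neural transcription factors and regulators of muscle cells. A gene that depends on the fusion protein would be lower after its loss, although secondary changes can go either way.

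The arrays were alike in scale, with a mean intensity of 499.9 on each once 2% of probe sets at either end were left out, and array control probe sets over the limit had a median log2 difference to siCont of 0.20 in siPF and 0.24 in siB7-H3, whose part in the results was not tested. FOXO1 had intensities of 249 in siPF, 650.0 in siB7-H3 and 678 in siCont, and CD276 had 1381, 362 and 1486 in the same order of arrays. Other probe sets over the limit gave 88.4, 373 and 358 for FOXO1 and 349, 11.4 and 460 for CD276. The log2 difference of CD276 in siPF was thus -0.105 at the probe set used and -0.399 at the other. PAX3 had 329 in siPF, 398 in siB7-H3 and 381 in siCont, and 194, 154 and 233 at another probe set over the limit. Probe sets of PAX3 and FOXO1 may read fused as well as normal transcripts, which was not tested. All 6 muscle markers (MYOD1, MYOG, DES, CDH15, CHRNA1 and CHRNG) reached the limit. CHRNG did so only on the siB7-H3 array, on which it was highest, with 134.8 in siPF, 141.5 in siB7-H3 and 85.3 in siCont. Of the 6 markers, 1 was below siCont in siPF and 0 in siB7-H3, where 47.4% and 47.2% of all genes over the limit were. Their summed intensities were 26651 in siPF, 28072 in siB7-H3 and 23171 in siCont, and their part in the results was not tested. No measured leukocyte, epithelial or melanocytic marker reached the limit (at most 80.7). Of 3 endothelial markers PECAM1 did, with 621 in siPF, 910.1 in siB7-H3 and 699 in siCont, while CDH5 and TEK stayed under 75. Among genes under the limit the SD of the log2 difference between siPF and siCont across genes was 1.42, and it was 0.52 from the limit to 500, 0.36 from 500 to 2000 and 0.31 over 2000, so a difference of a dim gene carries little weight.

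As a group, the reported targets lay lower on the siPF array than on the siCont array and near the siCont level on the siB7-H3 array. Of the 22 genes that reached the limit, 15 were below siCont in siPF, or 68.2%, against 47.4% of all genes over the same limit. Their median log2 difference was -0.39 in siPF, against 0.02 for all 10601 genes, and 25% of the targets lay at or below -0.66, against -0.17 for all genes. In siB7-H3, 10 of 22 were below siCont, or 45.5%, against a background of 47.2%, and the median was 0.01, against 0.02 for all genes. Without the level limit 20 of 33 targets were below siCont in siPF, or 60.6%, against 48.4% of all 19775 genes. Both comparisons use the same siCont array.

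**Figure D1:**
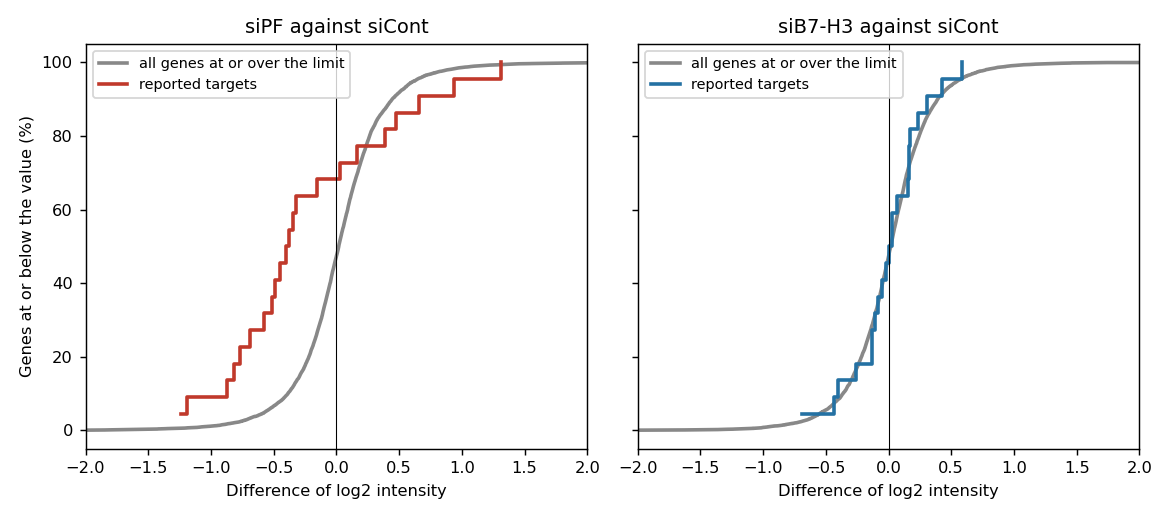
Cumulative share of genes (vertical axis, percent) by difference of log2 intensity to siCont (horizontal axis), for siPF on the left and siB7-H3 on the right. The coloured line holds the 22 reported targets that reached the limit and the grey line all 10601 genes that did; the medians are -0.39 and 0.02 in siPF, and 0.01 and 0.02 in siB7-H3.

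Few of these differences were large. At least 2-fold lower in siPF than in siCont were 2 of the 22 genes, POU4F1 and GREM1, where 1.16% of all genes over the limit were called, and 1 gene, TSPAN33, was at least 2-fold higher, where the background was 1.4%. At the probe sets used GREM1 reached the limit only in siB7-H3, and TSPAN33 only in siPF. With values under the limit set to it, 1 gene, POU4F1, was lower and 0 were higher, where 0.651% and 0.981% of genes were. Both GREM1 and TSPAN33 are also among the 1.5-fold genes that follow. At 1.5-fold the lower genes were 6 (ALK, MET, POU4F1, GREM1, JAKMIP2 and SKP2), or 27.3% of the targets against a background of 4.67%, and the higher genes were 3 (TSPAN33, KCNN3 and QPRT), or 13.6% against 5.76%. In siB7-H3 none of the 22 was past 2-fold, with a background of 0.821% lower and 0.868% higher, and 1, TSPAN33, was past 1.5-fold lower, or 4.55% against 3.83%, from values that were under the limit on both arrays, and none was past 1.5-fold higher, where 4.41% of genes were.

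**Figure D2:**
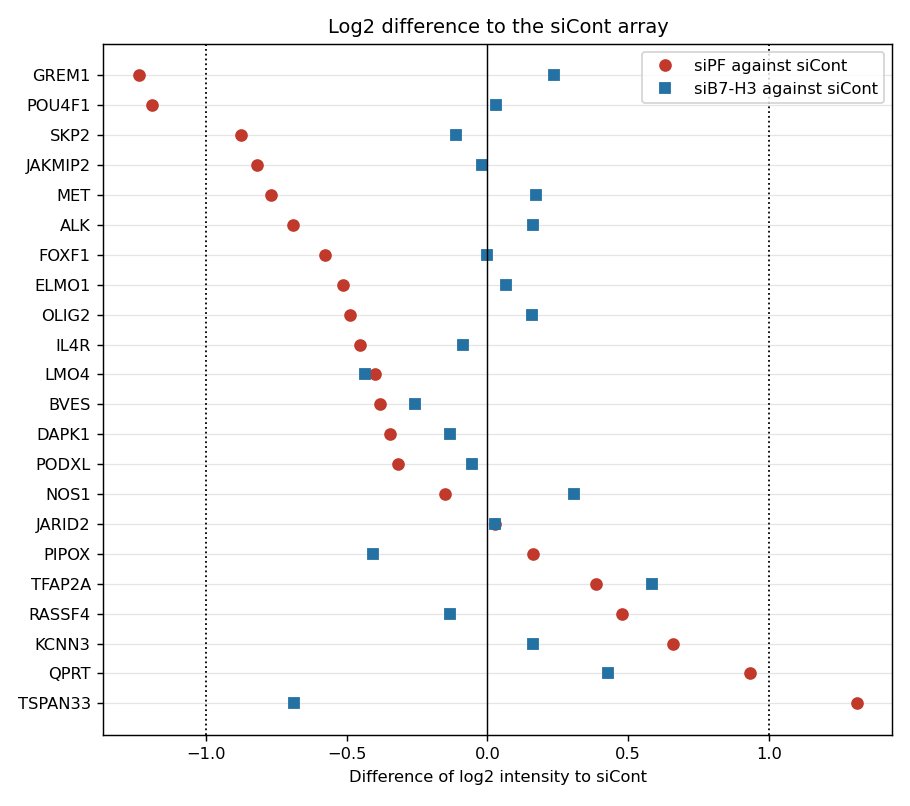
Difference of log2 intensity to siCont (horizontal axis) of each reported target that reached the limit, ordered by its value in siPF, with siPF as red circles and siB7-H3 as blue squares. Dotted lines mark 2-fold; GREM1 and POU4F1 lie beyond it on the lower side and TSPAN33 on the higher side in siPF, and no target does in siB7-H3.

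The 3 receptors over the limit, of 6 on the list, were lower in siPF than in siCont. MET, the receptor of hepatocyte growth factor, had an intensity of 4605 in siPF, 8852 in siB7-H3 and 7850 in siCont, a log2 difference of -0.77 in siPF and 0.17 in siB7-H3. Of all genes over the limit, 2.36% lay lower than MET in siPF. ALK, a receptor tyrosine kinase best known from neuroblastoma and lymphoma, had 207 in siPF, 374 in siB7-H3 and 334 in siCont, log2 differences of -0.69 and 0.16 where the SD across genes at such levels was 0.52 in siPF. Another ALK probe set gave 121 in siPF, 151 in siB7-H3 and 152 in siCont, log2 differences of -0.34 and -0.01. For both genes the siPF array was thus the lowest at every probe set, whereas the size of the difference depended on the probe set. For MET the siB7-H3 array was above siCont at every probe set, and for ALK only at the probe set used. IL4R, the alpha chain of the interleukin-4 receptor, had 1178 in siPF, 1520 in siB7-H3 and 1612 in siCont, a log2 difference of -0.45 in siPF. The remaining receptors did not reach the limit, and of these the VEGF receptor KDR was below siCont in siPF. PDGFRA and the cannabinoid receptor CNR1 were above it at the probe sets used, with log2 differences of 0.33 and 0.32. The other CNR1 probe sets, also under the limit, were all below siCont in siPF, with -1.584, -0.35 and -1.616. Those of PDGFRA went both ways, with 1.274, -0.039 and 0.04.

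Among the transcription and chromatin factors over the limit, 4 were below siCont in siPF and 2 above, and POU4F1 had the lowest log2 difference. POU4F1, a POU-domain factor of sensory neurons, had 676 in siPF, 1576 in siB7-H3 and 1542 in siCont, so that the siB7-H3 and siCont arrays were nearly level and siPF was 2.28-fold lower than siCont, a log2 difference of -1.19. Another POU4F1 probe set gave 439 in siPF, 1092 in siB7-H3 and 1358 in siCont, a log2 difference of -1.63 in siPF and -0.31 in siB7-H3. Of all genes over the limit, 0.679% lay lower than POU4F1 in siPF.
The 250 bases before the first annotated start of POU4F1, shown because this gene was past 2-fold at both of its probe sets, lie on the minus strand at chr13:78603553-78603802 (GRCh38.p14, RefSeq), and capitals mark the letters CAGCTG, an E-box of the kind that MYOD1 and MYOG bind:
POU4F1: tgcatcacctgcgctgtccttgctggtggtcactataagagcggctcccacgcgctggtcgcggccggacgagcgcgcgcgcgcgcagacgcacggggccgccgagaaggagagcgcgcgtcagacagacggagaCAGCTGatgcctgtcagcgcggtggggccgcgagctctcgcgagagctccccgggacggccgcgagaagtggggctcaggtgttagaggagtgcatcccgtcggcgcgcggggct

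OLIG2, a basic helix-loop-helix factor of the oligodendrocyte lineage, had 267 in siPF, 417 in siB7-H3 and 374 in siCont, a log2 difference of -0.49 in siPF and 0.16 in siB7-H3. FOXF1, a forkhead factor of the mesoderm, had 314 in siPF and 468 on each of the siB7-H3 and siCont arrays, a log2 difference of -0.58 in siPF. Both followed the pattern of POU4F1 at a smaller size, near the SD of 0.52 across genes at such levels. LMO4, a LIM-only adaptor of transcription complexes, differed from it, with 2144 in siPF, 2092 in siB7-H3 and 2829 in siCont, so that both knockdown arrays lay below siCont by log2 differences of -0.40 and -0.43. Another LMO4 probe set gave 246 in siPF, 315 in siB7-H3 and 390.1 in siCont, log2 differences of -0.66 and -0.31. The remaining LMO4 probe sets did not reach the limit and lay above siCont in siPF, by 0.362, 0.317 and 0.174. In siB7-H3 they gave 0.037, -0.165 and 0.169. JARID2, a subunit of Polycomb repressive complex 2, had 874 in siPF, 873 in siB7-H3 and 858 in siCont, nearly level, but its other probe set over the limit gave 898 in siPF, 590.2 in siB7-H3 and 760.4 in siCont, with log2 differences of 0.24 and -0.36. TFAP2A, the AP-2 alpha factor of the neural crest, had 620 in siPF, 711 in siB7-H3 and 474 in siCont and was thus above siCont on both knockdown arrays, by 0.39 and 0.58. The other TFAP2A probe sets, which did not reach the limit, lay below siCont on both arrays, with log2 differences of -0.71 and -0.34 in siPF and -1.68 and -1.12 in siB7-H3.

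**Figure D3:**
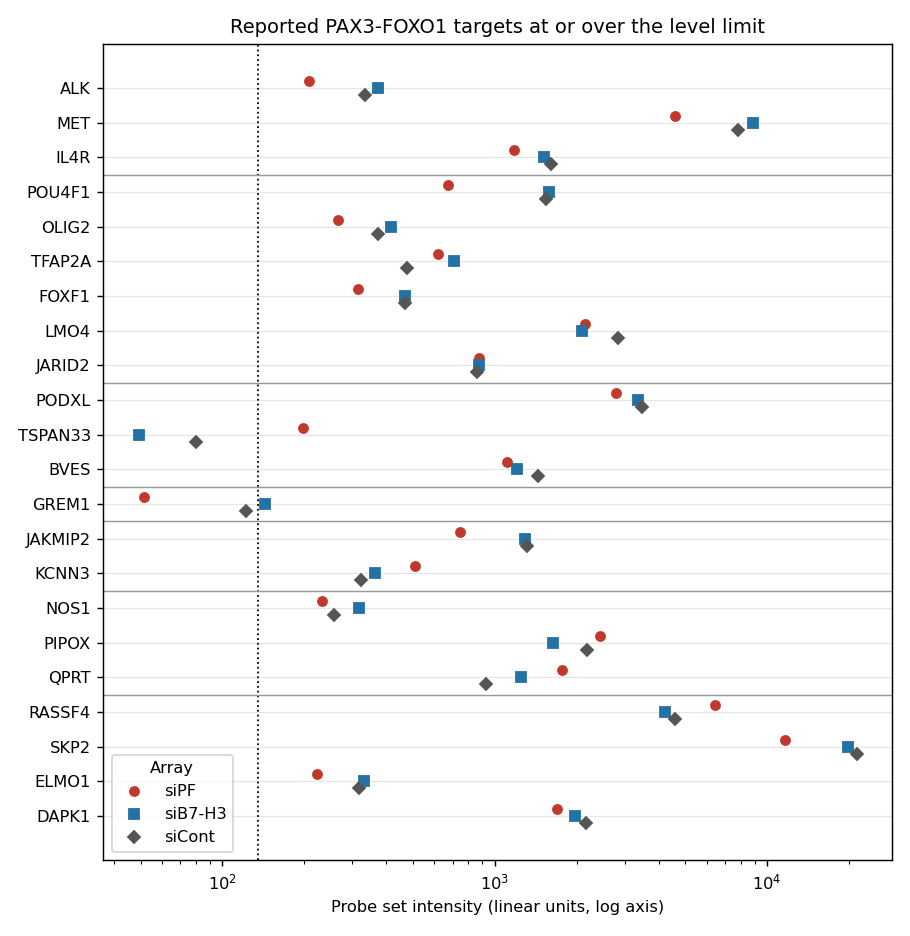
Intensity (horizontal log axis, linear units) of the 22 reported targets that reached the level limit (dotted line), 1 row per gene in blocks by role, with siPF as red circles, siB7-H3 as blue squares and siCont as grey diamonds. Points are single arrays; in 15 of the rows siPF lies left of siCont, as for MET at 4605 against 7850, and levels of different genes cannot be compared on this axis.

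The adhesion and membrane proteins were divided. PODXL, the sialomucin podocalyxin, had 2793 in siPF, 3358 in siB7-H3 and 3483 in siCont, a log2 difference of -0.32 in siPF and -0.05 in siB7-H3. BVES, a Popeye-domain membrane protein of striated muscle that binds cyclic AMP, had 1107 in siPF, 1207 in siB7-H3 and 1442 in siCont, with log2 differences of -0.38 and -0.26. These differences were about as large as the SD of 0.31 to 0.36 across genes at such levels. TSPAN33, a tetraspanin, was the only target over the limit that was past 2-fold higher in siPF, with 198 in siPF, 49.5 in siB7-H3 and 79.7 in siCont, log2 differences of 1.31 and -0.69. It passed the level limit only through the siPF array, on which it was high, and it has 1 probe set, so its difference has no second reading. With values under the limit set to it the log2 difference was 0.55 in siPF and 0 in siB7-H3, whose value and that of siCont both lay under the limit.
The 250 bases before the start of TSPAN33, shown as the target over the limit past 2-fold higher, lie on the plus strand at chr7:129144457-129144706 (GRCh38.p14, RefSeq), with CAGCTG again in capitals:
TSPAN33: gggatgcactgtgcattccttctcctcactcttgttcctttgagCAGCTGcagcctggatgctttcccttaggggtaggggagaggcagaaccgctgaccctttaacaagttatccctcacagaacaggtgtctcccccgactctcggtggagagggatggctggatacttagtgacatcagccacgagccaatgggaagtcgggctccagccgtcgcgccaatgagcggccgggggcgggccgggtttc

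Of the secreted proteins GREM1, an antagonist of bone morphogenetic proteins, reached the limit, narrowly. It had 51.6 in siPF, 143 in siB7-H3 and 122 in siCont, a log2 difference of -1.24 in siPF and 0.24 in siB7-H3. Its other probe set gave 66.6 in siPF, 94.1 in siB7-H3 and 142 in siCont, log2 differences of -1.09 and -0.59. Both probe sets were thus past 2-fold lower in siPF, but they differed in sign in siB7-H3. With values under the limit set to it the siPF difference was 0, since the siPF and siCont values both lay under it. BMP5 and NELL1, the other secreted proteins, stayed under the limit.
The 250 bases before the first start of GREM1, shown beside POU4F1 as the other target past 2-fold lower, lie on the plus strand at chr15:32717754-32718003 (GRCh38.p14, RefSeq) and hold none of the motifs searched:
GREM1: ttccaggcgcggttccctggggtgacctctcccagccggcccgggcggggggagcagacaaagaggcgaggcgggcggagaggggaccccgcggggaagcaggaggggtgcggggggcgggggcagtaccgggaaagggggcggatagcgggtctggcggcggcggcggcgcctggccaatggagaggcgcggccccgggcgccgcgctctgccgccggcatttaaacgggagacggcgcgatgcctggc

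Of the signalling and cell cycle genes 3 were below siCont in siPF and 1 was above it. SKP2, the F-box protein that directs the degradation of the cell cycle inhibitor p27, had 11625 in siPF, 19779 in siB7-H3 and 21340 in siCont, a log2 difference of -0.88 in siPF and -0.11 in siB7-H3. Both other SKP2 probe sets were past 2-fold lower in siPF, with 3942 in siPF, 7736 in siB7-H3 and 10478 in siCont at one of them and 3226, 4270 and 7863 at the other. Their log2 differences were -1.41 and -1.29 in siPF, and -0.44 and -0.88 in siB7-H3. SKP2 was therefore below siCont at all of its probe sets on both knockdown arrays, more so in siPF. ELMO1, which activates Rac in cell motility and engulfment, had 222 in siPF, 331 in siB7-H3 and 316 in siCont, a log2 difference of -0.51 in siPF that was within the SD of 0.52 across genes at such levels. DAPK1, a calmodulin-dependent kinase of cell death, had 1699 in siPF, 1969 in siB7-H3 and 2159 in siCont, with log2 differences of -0.35 and -0.13. RASSF4, a Ras association domain protein, ran the other way, with 6424 in siPF, 4204 in siB7-H3 and 4611 in siCont, a log2 difference of 0.48 in siPF and -0.13 in siB7-H3. Of its other probe sets that reached the limit, one gave 2128 in siPF, 1057 in siB7-H3 and 930.0 in siCont and another 2926, 1724 and 1398, so that both were past 2-fold higher in siPF, by 1.19 and 1.07.

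Channel, cytoskeletal and enzyme genes also went both ways. JAKMIP2, a microtubule-binding protein that is found in neurons, had 743 in siPF, 1292 in siB7-H3 and 1310 in siCont, a log2 difference of -0.82 in siPF and -0.02 in siB7-H3. A further probe set gave -0.64 on the siPF array and -0.07 on the other. KCNN3, a small-conductance calcium-activated potassium channel, had 511 in siPF, 362 in siB7-H3 and 324 in siCont, a log2 difference of 0.66 in siPF and 0.16 in siB7-H3. QPRT, an enzyme of NAD synthesis from tryptophan, had 1773 in siPF, 1249 in siB7-H3 and 928 in siCont, so that the siPF array was the highest, with a log2 difference of 0.93, and siB7-H3 lay between at 0.43. Its other probe set gave 0.44 in siPF and -0.15 in siB7-H3. NOS1, the neuronal nitric oxide synthase, had 231 in siPF, 318 in siB7-H3 and 257 in siCont, and PIPOX, a peroxisomal oxidase of pipecolic acid and sarcosine, had 2437 in siPF, 1642 in siB7-H3 and 2176 in siCont. Another NOS1 probe set over the limit gave log2 differences of -0.43 in siPF and -0.16 in siB7-H3. The log2 differences of NOS1 and PIPOX in siPF, -0.15 and 0.16, were under the SD across genes at such levels.

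Where a target had several probe sets over the limit, these went the same way in siPF. Of 15 such targets all 15 had every probe set on 1 side of siCont, 11 below and 4 above, whereas 53.1% of the 5442 genes with at least 2 probe sets over the limit did. In siB7-H3, 7 of the 15 had every probe set on 1 side, 5 below and 2 above, against 51.2% of genes. Probe sets of a gene read the same RNA sample, so this concerns the reading of an array and does not stand in for a second culture. The size differed more than the direction. MET, for example, had log2 differences in siPF of -0.77, -0.63, -0.15 and -0.05, and in siB7-H3 of 0.17, 0.48, 0.60 and 0.70.

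**Figure D4:**
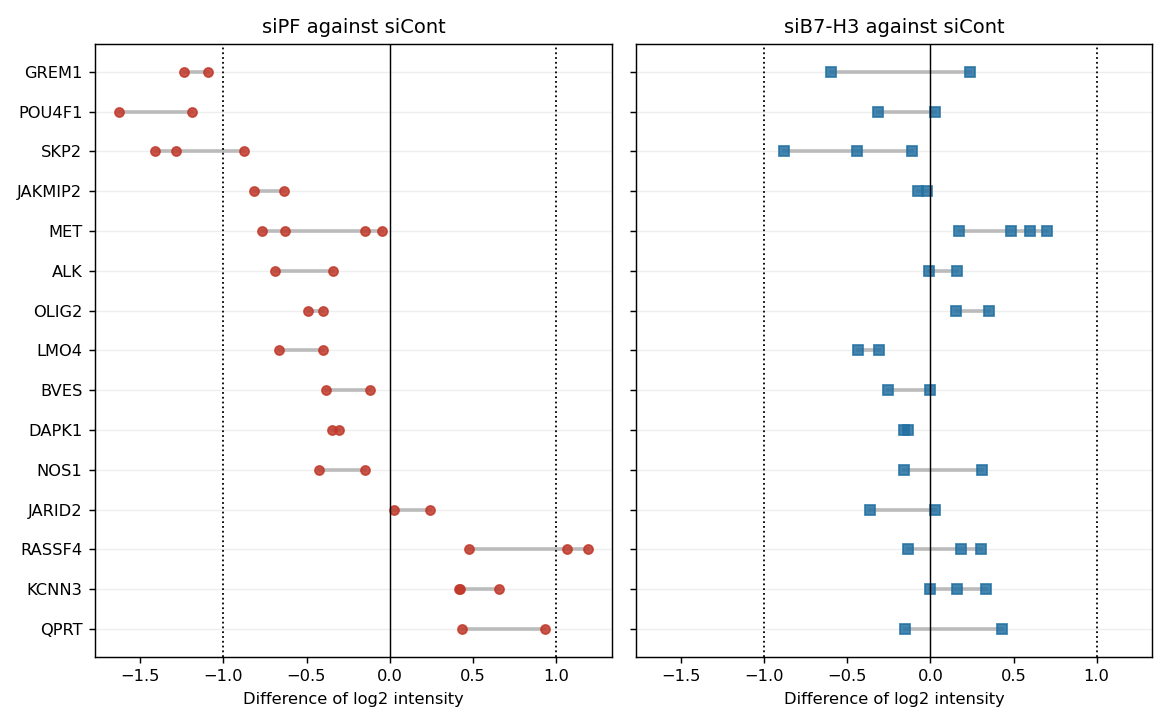
Difference of log2 intensity to siCont (horizontal axis) at each probe set that reached the limit, for the 15 reported targets with at least 2 such probe sets, in siPF on the left and siB7-H3 on the right, with a grey bar from the lowest to the highest. In siPF every bar lies on 1 side of 0 (11 below, 4 above), and in siB7-H3 the bars of 8 targets reach across it.

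Set directly against each other, without the siCont array, siPF was below siB7-H3 for 15 of the 22 targets, or 68.2%, against 49.0% of all genes over the limit, with a median log2 difference of -0.32, against 0.01. POU4F1, with -1.22, and GREM1, with -1.47, were at least 2-fold lower in siPF than in siB7-H3, where 0.981% of genes were, and TSPAN33, with 2.0, was at least 2-fold higher, where 0.934% were. GREM1 reached the limit here only on the siB7-H3 array and TSPAN33 only on the siPF array, and with values under the limit set to it their differences were -0.08 and 0.55, while the other GREM1 probe set gave -0.50. MET, with -0.94, ALK, with -0.85, JAKMIP2, with -0.80, SKP2, with -0.77, and OLIG2, with -0.65, were also past 1.5-fold lower. This made 7 of 22 targets, or 31.8%, against a background of 3.76%. RASSF4, with 0.61, joined TSPAN33 past 1.5-fold higher, which made 2 of 22 against a background of 4.08%. LMO4 and JARID2, with 0.03 and 0.001, were level between the knockdown arrays at the probe sets used, and -0.36 and 0.61 at their other probe sets over the limit. Without the level limit 19 of 33 targets were below siB7-H3, or 57.6% against 48.3% of genes, 3 were past 2-fold lower, where 8.87% of genes were, and 4 were past 2-fold higher, where 10.0% were.

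The 11 targets that stayed under the limit went both ways in siPF, 5 below and 6 above siCont, with log2 differences between -2.24 and 2.23 and a median of 0.27. Past 2-fold lower were KDR, with 6.37 in siPF, 13.4 in siB7-H3 and 30.2 in siCont, and PRDM12, a regulator of nociceptive neurons, with 17.5, 14.6 and 61.8 in the same order of arrays. Past 2-fold higher were NELL1, a secreted protein, with 34.6, 8.97 and 7.38, the neuronal factor NHLH1, with 55.9, 39.1 and 14.3, and WT1, a zinc finger factor of kidney development, with 13.0, 5.11 and 3.03. Over all levels 9.39% of genes were past 2-fold lower and 9.72% higher in siPF, so 4 of 33 targets in each direction, or 12.1%, was near the background. In siB7-H3 2 of 33 were past 2-fold lower, KDR and PRDM12, against 9.45% of genes, and 1 was higher, NHLH1, against 8.75%. The other dim targets were PDGFRA, CNR1, TFAP2B, the P-cadherin CDH3, BMP5 and DCX, the doublecortin of migrating neurons. CDH3 was at most 5.61 on any array.

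Other genes tied to the fusion protein and its muscle regulatory circuit were listed, 16 in all, with earlier results of these data known. The paper had already reported lower CXCR4 and higher myogenin (MYOG) in Rh-30 after both knockdowns, so the list is not independent of these data. Its shares and medians, given beside those of all genes, are therefore a description only. Of the 16, 14 had a probe set named with that gene alone, all over the limit. In siPF 2 were past 2-fold lower, ASS1 (1172 in siPF, 4762 in siB7-H3 and 5094 in siCont) and CXCR4 (436, 732 and 947), and 1, MYOG, was past 2-fold higher (3386, 1269 and 605), or 14.3% and 7.14% of the list against 1.16% and 1.4% of genes over the limit. In siB7-H3 none was past 2-fold lower and MYOG, with a log2 difference of 1.07, was past 2-fold higher, where the shares of genes were 0.821% and 0.868%. The median log2 difference of the 14 was -0.19 in siPF and 0.12 in siB7-H3, against 0.02 in each for all genes over the limit. Of the 14, 9 were below siCont in siPF and 4 in siB7-H3, where 47.4% and 47.2% of genes were. FGFR4, a receptor tyrosine kinase of muscle precursors, had 5182 in siPF, 7100 in siB7-H3 and 6854 in siCont, a log2 difference of -0.40 in siPF. MYF5, a myogenic factor, had 213 in siPF, 342 in siB7-H3 and 415 in siCont, a log2 difference of -0.96 in siPF. MYCN had 3373, 3642 and 2794 in the same order of arrays, a log2 difference of 0.27 in siPF. Besides MYOG and MYCN, those above siCont in siPF were SOX8, with 0.77, BCL2L1, with 0.57, and CHD4, with 0.41.

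In the promoters of the targets the shares of windows with GTCACG or ATTA, letters of PAX3 sites, lay near those of all promoters. RefSeq windows of 250 bases before a start were matched for 28 of the 33 targets, 53 windows in all, and both strands were searched. GTCACG, the core of the paired domain site (CGTGAC on the other strand), was in 9.43% of these windows and in 7.93% of all 35116. The former were 5 windows of 4 targets, a small count. A pair of homeodomain cores facing each other (TAAT, any 3 bases, then ATTA) was in none of the 53 and in 0.33% of all. With so low a share, 53 windows are too few for a comparison. ATTA alone (TAAT on the other strand) was in 45.3% of the windows of the targets and 47.4% of all. CAGCTG, which reads the same on both strands, was in 20.8% and 14.0%. Of the 19 targets over the limit that had a window, 3 held GTCACG, and the 30 bases around each match, with the match in capitals, are shown as the only paired domain cores found among them:
GREM1: ggccgcggacacCGTGACctcgctgctctg
NOS1: cagtgaagttggCGTGACcggtgggaggtc
JARID2: cccctcctcctcCGTGACgtcaaaagtcgg
They lie before later starts of these genes, at chr15:32718332-32718361 on the plus strand, at chr12:117309543-117309572 on the minus strand and at chr6:15248779-15248808 on the plus strand (GRCh38.p14). Of these genes, GREM1 was lower in siPF by 1.24 on the log2 scale at a low level, whereas NOS1 and JARID2 had differences of -0.15 and 0.03. A match of letters is a description of the window and no binding was measured here.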

How the data were processed

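RNA of Rh-30 cells transfected with siPF, siB7-H3 or siCont was measured on 3 arrays, 1 per condition. For each probe set the authors deposited a linear intensity, computed in Expression Console 1.4.1 (Affymetrix) by a summarization method not given in the sources used here. The arrays had been scaled to a common mean (2% of probe sets trimmed at either end), so a difference is relative to the array as a whole, and no floor had been applied, so differences of dim probe sets are wide.
Of 54675 probe sets, 62 were controls, 41091 were named with 1 gene in the platform annotation (symbols brought to current ones through RefSeq), 1801 with several and 11721 with none, and only those with 1 gene were used, for 19775 genes. Intensities were taken to log2 with no pseudocount and subtracted between arrays. A gene was called at 2-fold, and shares of genes past the same fold are given as background. No test was made. The genes named are all 33 members, PAX3, FOXO1 and CD276, the cell type markers and those of the 16 pathway genes past 2-fold. Named with them are FGFR4, MYF5, MYCN, SOX8, BCL2L1 and CHD4, which were chosen after their values were seen. The members, lists and limits were chosen with earlier results of these data known. Alternatives were other scalings, probe set choices, level limits, a floor, a pseudocount and a fold limit. Promoter windows are from RefSeq (GRCh38.p14). Python 3.11.15, numpy 2.4.6, pandas 2.3.3 and matplotlib 3.10.9 were used. Known differences planted in copies of the siCont array with little added noise were recovered. That checks the calculations and not how far a 2-fold difference between real arrays can be trusted.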

Additional observations from a re-analysis of the deposited data

How the results depend on the processing

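The median log2 difference of the reported targets in siPF against siCont lay between -0.41 and -0.32 under all alternatives run and that in siB7-H3 against siCont between -0.07 and 0.03. That of siPF against siB7-H3 was -0.21 with all 33 targets in place of 22. POU4F1 was past 2-fold lower in siPF under every alternative run, against siCont and against siB7-H3, whereas GREM1 and TSPAN33 depended on the handling of dim values. With values under the level limit set to it, a level limit of 200, or the limit set on the mean of the 3 arrays (added after the data were seen), 1 target was past 2-fold lower and 0 higher in siPF, against siCont and against siB7-H3 alike. With a pseudocount of 32, 1 target was lower against siCont. With quantile normalization, with the median of each gene's probe sets, and without probe sets that can bind several transcripts (16 targets over the limit), 1 was lower against siB7-H3. With the median over probe sets 18 targets reached the limit, and 2 were higher, RASSF4 and TSPAN33, against siCont and against siB7-H3. Those lower against siCont were POU4F1 and SKP2, where 1.16% of genes were lower and 1.57% higher. GREM1, with -1.165, was still past 2-fold lower but no longer reached the limit. With no level limit 4 were lower and 4 higher in siPF against siCont, where 9.39% and 9.72% of genes were. In siB7-H3 against siCont 2 were lower and 1 higher, where 9.45% and 8.75% were. Against siB7-H3, 4 were higher in siPF, where 10.0% were. At 1.5-fold 6 were lower and 3 higher in siPF against siCont, 1 lower in siB7-H3 against siCont, and 7 lower and 2 higher in siPF against siB7-H3. Of 447 values of single targets under another scaling, probe set choice, floor or pseudocount, 428 moved by less than 1.5-fold, and of 99 values at other probe sets 70 did; no difference past 2-fold changed sign, but 46 of these 546 values, all of smaller differences, had the other sign. Examples are GREM1 in siB7-H3 against siCont, with -0.61 after quantile normalization in place of 0.24, and TFAP2A in siB7-H3 against siCont, with -1.68 as the median of its probe sets in place of 0.58. For GREM1 the probe set was chosen anew after that scaling, and its other probe set gave -0.595 without it. No paired analysis was possible because each condition has 1 array. With 1 array per condition, 1 siRNA per target and 1 cell line, the error of these differences is unknown.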

Other observations

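Some probe sets of reported targets that did not reach the level limit on any array differed in size or direction from the one that stands for the gene. NOS1 had 6 probe sets, of which a dim one gave 33.1 in siPF, 100.4 in siB7-H3 and 116 in siCont, a log2 difference of -1.81 in siPF, against -0.15 at the probe set used. A dim RASSF4 probe set gave 43.5 in siPF, 7.38 in siB7-H3 and 10.7 in siCont, a log2 difference of 2.02 in siPF, and a dim JARID2 probe set gave 22.6, 26.3 and 52.3 on the same arrays, a log2 difference of -1.21. PDGFRA, a receptor tyrosine kinase often named among targets of the fusion protein, had 4 probe sets and none was above 36.5 on any array.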
